A study of Sus scrofa with 9 samples.

Results

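The proteases and protease inhibitors of the pig esophagus were described here across 3 kinds of sample. Genes were taken by symbol: trypsin-like serine proteases (KLK, PRSS and TMPRSS genes and ST14), cathepsins (CTS), ADAM metalloproteases, calpains (CAPN) and caspases (CASP) on the protease side, and serpins (SERPIN), Kazal and Kunitz inhibitors (SPINK and SPINT) and cystatins (CST) on the inhibitor side. This gave 88 of the 12217 genes that the array annotation names, each read through 1 probe set: 19 serine proteases, 10 cathepsins, 16 ADAM genes, 7 calpains, 6 caspases, 19 serpins, 6 Kazal and Kunitz inhibitors and 5 cystatins. RNA levels came from 9 microarrays (Affymetrix PorGene 1.0 ST), each with a single sample. Of these, 3 arrays held spheroids grown in vitro from esophageal submucosal glands (ESMG) and labelled pigs 1, 2 and 3, 3 held ESMG tissue of pigs 37, 39 and 40, and 3 held the overlying squamous tissue of the same pigs 37, 39 and 40; the tissue samples are labelled as coming from control pigs. The spheroids were kept in growth factor reduced Matrigel under Advanced DMEM/F12 with 10 mM HEPES, B27, N2 and 50 ng/ml recombinant human EGF, and the sources used here do not say how their donors relate to the tissue donors. Precision is limited by the number of arrays, 3 per group.

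Extracellular proteolysis in epithelia is set by pairs of enzymes and inhibitors. Membrane-anchored serine proteases such as matriptase (ST14) and prostasin (PRSS8) act at the cell surface and are held in check by the Kunitz inhibitors HAI-1 (SPINT1) and HAI-2 (SPINT2), while ADAM proteases cut growth factors and receptors off the membrane. Cathepsins work mainly in lysosomes and are inhibited by cystatins, calpains are calcium-dependent proteases of the cytosol, and caspases carry out apoptosis and inflammasome signalling. Serpins trap serine proteases by a suicide mechanism, although several members of the family have lost inhibitory activity and serve as chaperones, hormone carriers or signals.

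Values are log2 RMA levels, on which a difference of 1 is a 2-fold difference. A gene was called when limma's moderated test gave a Benjamini-Hochberg adjusted p under 0.05 over all 12217 genes and the fold was at least 2, and all adjusted p-values below are of that test. In counts of genes, rose and fell mean called higher and called lower. Marker lists bore on the make-up of the samples. Of 13 measured glandular markers, 12 were higher in ESMG than in squamous tissue, and the mean level of the list lay between 10.91 and 11.71 in ESMG arrays and between 7.58 and 8.61 in squamous arrays. The lowest ESMG value, 10.91, was that of pig 40, which also had the highest squamous marker level among ESMG arrays (11.78, against 11.10 and 11.45), so that array stood nearest to squamous tissue. Of 6 measured squamous markers none differed by a call between ESMG, at 11.10 to 11.78, and squamous tissue, at 11.93 to 12.13. Fibroblast and matrix markers fell in 13 of 15 in spheroids against either tissue, with list means of 7.09 to 7.59 in spheroids, 10.60 to 10.89 in ESMG and 10.55 to 10.86 in squamous tissue. Leukocyte markers fell in 7 of 11 against ESMG, with list means of 6.81 to 6.85 in spheroids, 7.94 to 9.09 in ESMG and 7.51 to 8.23 in squamous tissue. In such bulk samples fewer cells of a type and less RNA per cell cannot be told apart.

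**Figure D1:**
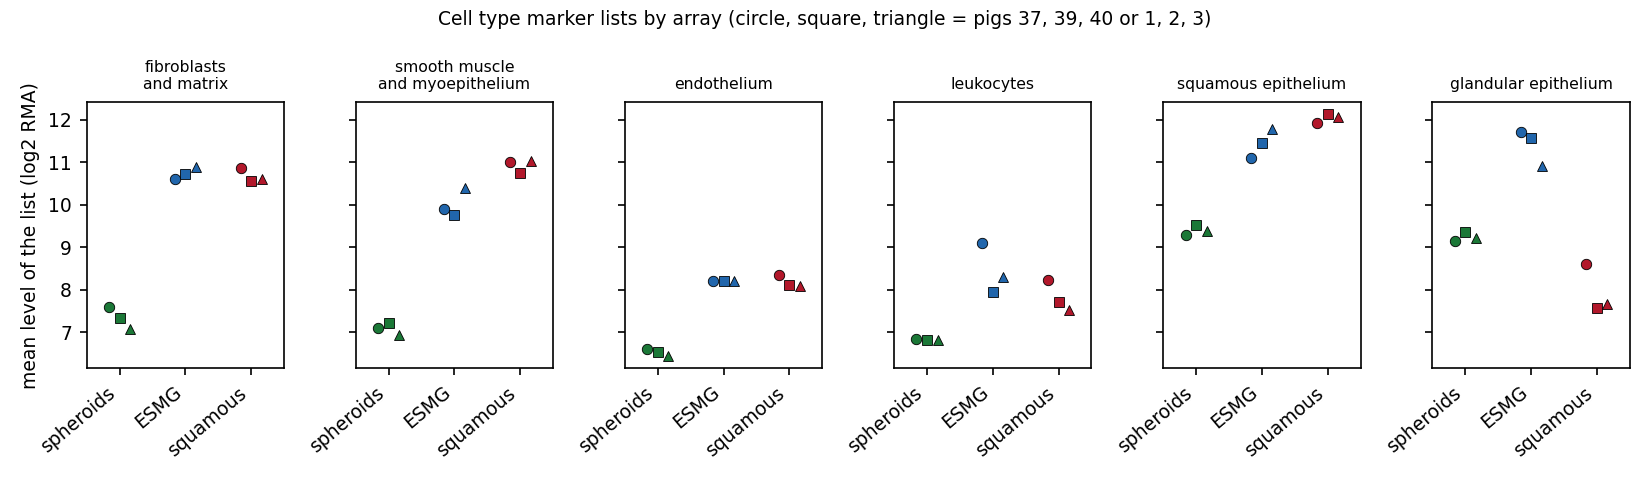
Mean log2 RMA level of each cell type marker list (vertical axis) on every array, with spheroids left of ESMG and squamous tissue. Spheroid arrays lie at 7.09 to 7.59 for fibroblast and matrix markers, against 10.55 to 10.89 over the tissue arrays, and the ESMG arrays lie highest for glandular markers.

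Spheroids held more ADAM8, ST14, TMPRSS4 and SERPINB2 RNA than ESMG and less SERPING1, SERPINF1, SERPINA1, SERPINB7 and SERPINB1, by 3.29-fold to 9.83-fold. Against squamous tissue the same spheroids held more ADAM8, TMPRSS2, ST14 and ADAM9 and less SERPING1, SERPINB7, SERPINF1 and SERPINB1. The glands differed from the lining above them in SERPINA1, ADAM28, CAPN6 and TMPRSS2, which were higher in ESMG. Against ESMG, 20 of the 88 genes were called in spheroids, 8 higher and 12 lower (22.7%); of all tested genes 16.9% were called, 7.99% higher and 8.91% lower. Against squamous tissue, 24 were called in spheroids, 13 higher and 11 lower (27.3%); of all tested genes 16.7% were called, 8.61% higher and 8.05% lower. The split of all genes depended on scaling. Against ESMG, the deposited values gave 976 genes higher and 1089 lower. Equal array medians gave 1244 higher and 935 lower there, 10 and 12 of them among the 88 genes, whereas cyclic loess gave 755 higher and 1245 lower, with 6 and 13 among the 88. Against squamous tissue, the deposited values gave 1052 higher and 983 lower. Equal array medians gave 1370 higher and 834 lower there, 15 and 11 of them among the 88 genes, whereas cyclic loess gave 891 higher and 1060 lower, with 13 and 12 among the 88. Between ESMG and squamous tissue 4 were called, all 4 higher in ESMG (4.55%); of all tested genes 3.06% were called, 2.65% higher and 0.409% lower. With array weights 9 were called there, 5 higher and 4 lower: SERPINI1, named after its values were seen, gained a higher call (1.10), and ADAM19 (-1.12), SERPINB10 (-1.14), SERPINB2 (-1.41) and SERPINB7 (-1.15) gained lower ones. The median log2 difference of the 88 genes stood close to that of all genes in each comparison: 0.03 against 0.09 for spheroids versus ESMG, -0.04 against 0.03 for spheroids versus squamous tissue and -0.08 against -0.06 for ESMG versus squamous tissue. The serpins held the widest span, from -3.30 to 1.82 between spheroids and ESMG, with 8 of 19 called. Of the 5 cystatins 0 were called in any comparison, with differences between -0.55 and 0.75. Spheroid comparisons share the spheroid arrays and are set side by side below without being counted as separate support. Without the ESMG array of pig 40 the counts were 6 for ESMG versus squamous tissue (5 higher and 1 lower) and 19 for spheroids versus ESMG (7 higher and 12 lower).

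**Figure D2:**
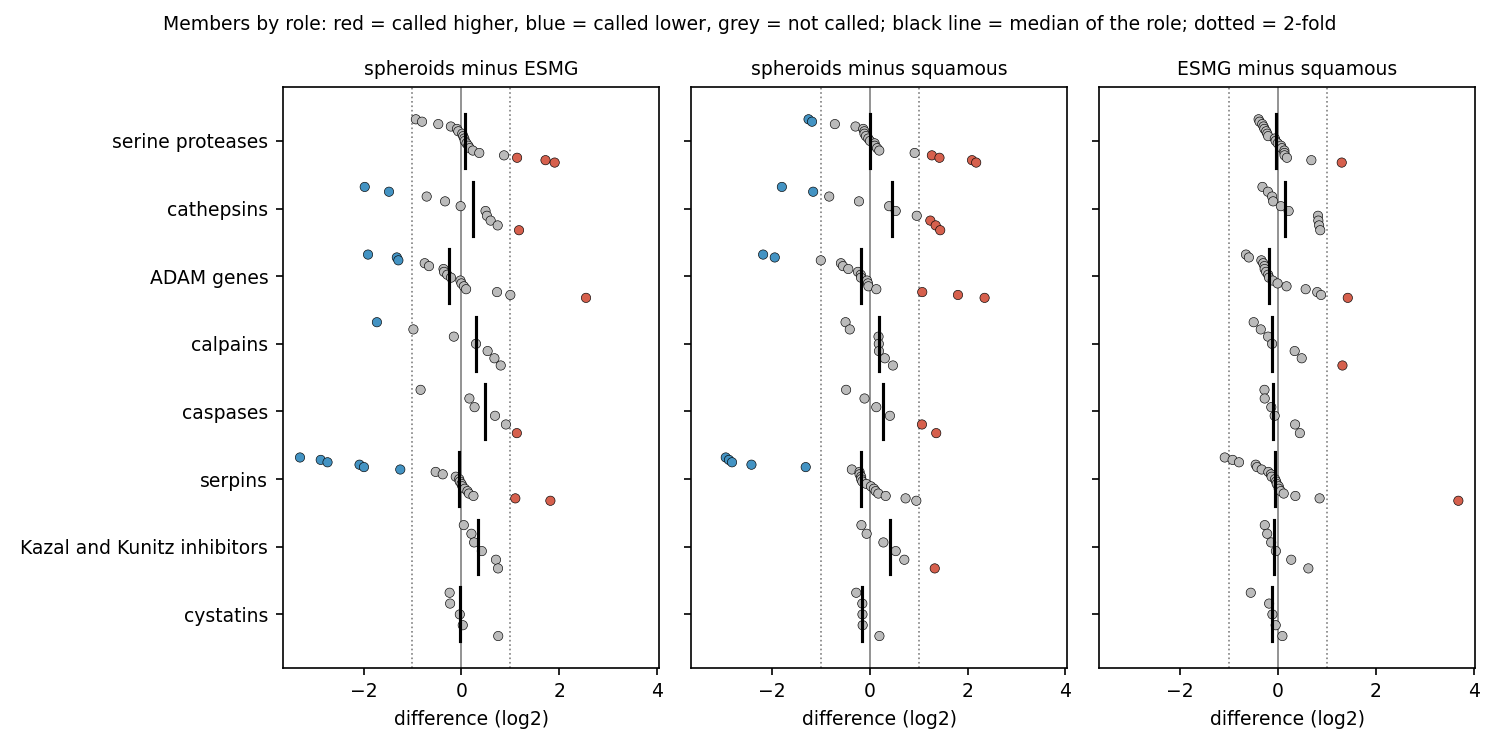
Log2 difference of each of the 88 genes (horizontal axis) by role, with spheroids minus ESMG, spheroids minus squamous and ESMG minus squamous from left to right. Coloured points passed the test and the dotted lines mark 2-fold; the serpins spread from -3.30 to 1.82 in the left panel, and 4 genes are coloured in the right panel.

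**Figure D3:**
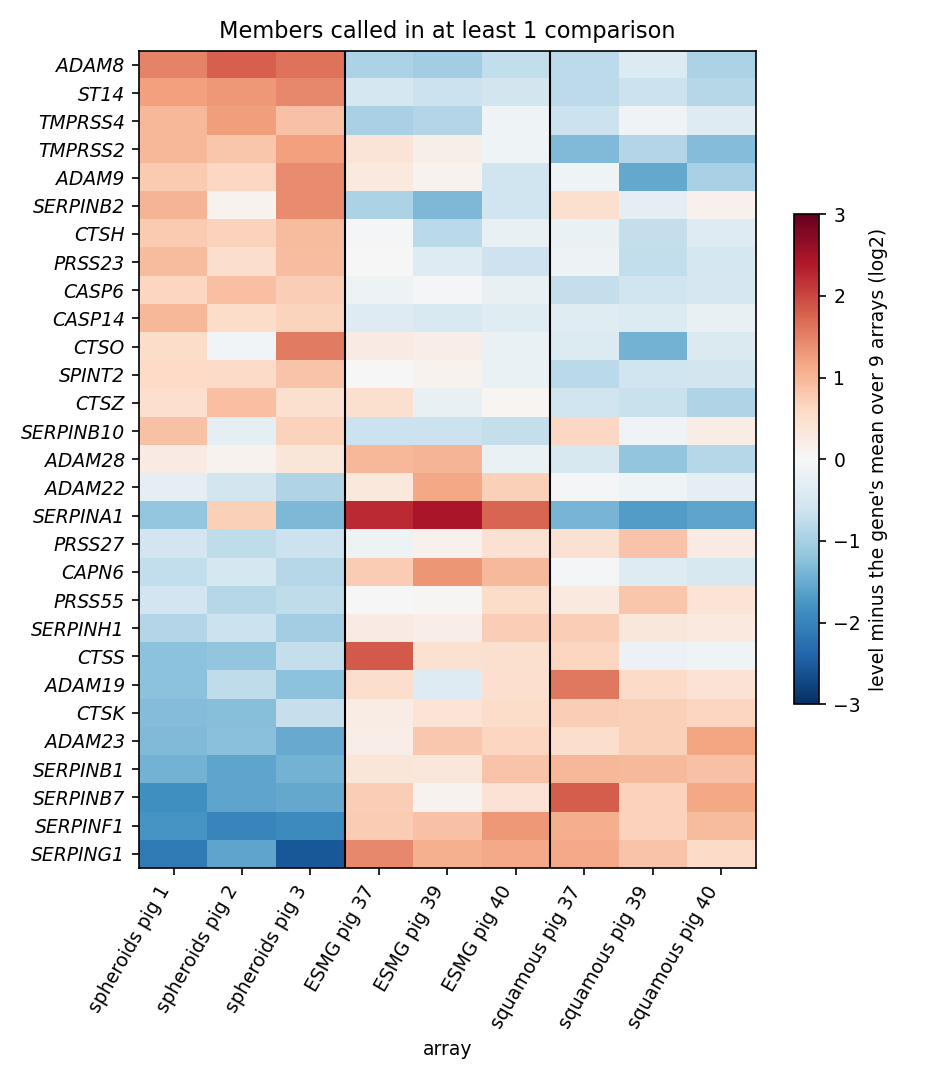
Level of the 29 genes called in at least 1 comparison (rows) on the 9 arrays (columns), as the log2 difference from the gene's own mean over the arrays. Rows run by the difference between spheroids and the 6 tissue arrays, from ADAM8 at the top to SERPING1 at the bottom; SERPINA1 is highest on the 3 ESMG arrays.

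Among the serine proteases, ST14, TMPRSS4 and PRSS23 rose in spheroids against both tissues. ST14, which encodes matriptase, measured 10.78, 10.85 and 10.99 in spheroids, 9.02, 8.89 and 8.99 in ESMG and 8.75, 8.89 and 8.69 in squamous tissue. Every spheroid array lay above every tissue array, and the tissue arrays lay close together. The gene was 3.74-fold higher in spheroids than in ESMG (log2 difference 1.90, SE 0.13, adjusted p = 6.98e-07) and 4.26-fold higher than in squamous tissue (log2 difference 2.09, SE 0.13, adjusted p = 3.32e-07). TMPRSS4, another transmembrane serine protease, measured 10.11, 10.36 and 9.99 in spheroids, 8.12, 8.22 and 8.97 in ESMG and 8.47, 8.99 and 8.71 in squamous tissue. Spheroids were again the highest, and the ESMG array of pig 40 lay among the squamous arrays. It rose 3.29-fold against ESMG (log2 difference 1.72, SE 0.22, adjusted p = 9.35e-05) and 2.69-fold against squamous tissue (log2 difference 1.43, SE 0.22, adjusted p = 0.000346).

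TMPRSS2, a transmembrane protease of glandular and airway epithelium that also cleaves viral surface proteins, formed 3 separate levels: 9.09, 8.91 and 9.31 in spheroids, 8.47, 8.26 and 7.97 in ESMG and 6.77, 7.21 and 6.79 in squamous tissue. No array of one group overlapped another. It was 2.48-fold higher in ESMG than in squamous tissue (log2 difference 1.31, SE 0.18, adjusted p = 0.00131) and 4.52-fold higher in spheroids than in squamous tissue (log2 difference 2.18, SE 0.18, adjusted p = 3.02e-06), while the difference of spheroids from ESMG, 0.87 (SE 0.18, adjusted p = 0.00226), passed the adjusted p but not the 2-fold minimum. Prostasin (PRSS8), the membrane-tethered protease that matriptase activates, measured 9.79, 10.002 and 9.94 in spheroids, 9.81, 9.59 and 9.63 in ESMG and 9.14, 9.04 and 8.79 in squamous tissue. Squamous tissue was lowest with no overlap, and the 2 gland-derived groups overlapped. None of its differences reached 2-fold: 0.92 (SE 0.14, adjusted p = 0.000305) for spheroids versus squamous tissue, 0.69 (SE 0.14, adjusted p = 0.0147) for ESMG versus squamous tissue and 0.23 (95% interval -0.08 to 0.54, adjusted p = 0.219) for spheroids versus ESMG. With array medians set equal, the spheroid difference from squamous tissue was 1.05 and was called (adjusted p = 0.000111).

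PRSS23, a secreted serine protease, rose 2.2-fold in spheroids against ESMG (log2 difference 1.14, SE 0.20, adjusted p = 0.000851) and by 1.27 (SE 0.20, adjusted p = 0.000392) against squamous tissue. Its levels were 9.62, 9.19 and 9.59 in spheroids, 8.67, 8.28 and 8.04 in ESMG and 8.50, 7.93 and 8.14 in squamous tissue, so the spheroids lay above all tissue arrays. The call against ESMG was lost after cyclic loess (0.95) and without the ESMG array of pig 40 (0.99), where the fold fell just under 2. A pair of dimmer genes went the other way against squamous tissue. PRSS55 measured 6.01, 5.73 and 5.83 in spheroids, 6.60, 6.62 and 7.14 in ESMG and 6.88, 7.42 and 7.004 in squamous tissue and fell by 1.25 on the log2 scale (adjusted p = 0.000279); its call was lost when its 2 probe sets were averaged (-0.86) and with array weights (-0.98). PRSS27, an epithelial serine protease named after its values were seen, was -1.18 (SE 0.19, adjusted p = 0.000476) in the same comparison. Against ESMG, PRSS55 was -0.93 (adjusted p = 0.002) and PRSS27 -0.80 (adjusted p = 0.00548), both under 2-fold. PRSS55 was called lower there without the spheroids of pig 1 (-1.01) or the ESMG array of pig 37 (-1.03) or 39 (-1.01). In all, 3 of 19 serine proteases were called higher and none lower in spheroids against ESMG. Against squamous tissue 4 were called higher and 2 lower in spheroids, and 1 was called higher in ESMG than in squamous tissue. The other 13 were called in no comparison, and 3 of the 19 lay under the lower quartile of the array on all 9 arrays.

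**Figure D4:**
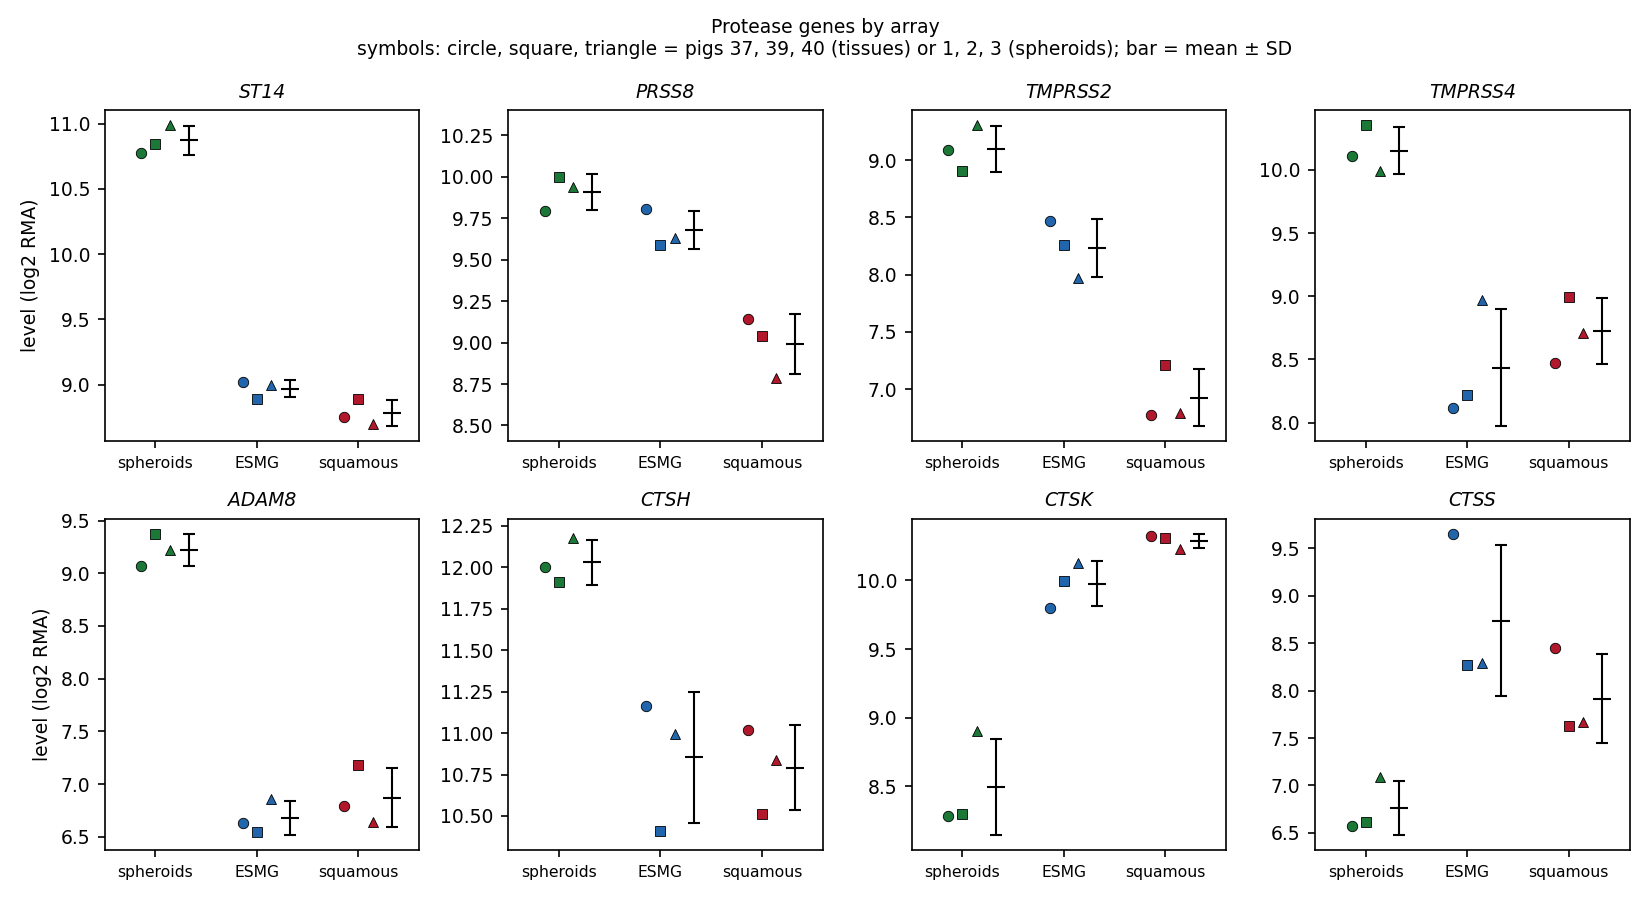
Log2 RMA level (vertical axis) of 8 protease genes on each array, with the mean and SD of each group of 3 beside its points. Spheroids lie above all tissue arrays for ST14, TMPRSS4, ADAM8 and CTSH and below them for CTSK and CTSS; TMPRSS2 falls into 3 levels.

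The inhibitors of matriptase and prostasin had smaller differences between spheroids and the tissues than matriptase. SPINT1, which encodes HAI-1, measured 11.65, 11.68 and 12.01 in spheroids, 11.18, 10.80 and 11.11 in ESMG and 11.12, 11.26 and 10.83 in squamous tissue. Spheroids were highest and the tissues overlapped. The differences were 0.75 (SE 0.17, adjusted p = 0.00393) for spheroids versus ESMG and 0.71 (SE 0.17, adjusted p = 0.00548) for spheroids versus squamous tissue, both under 2-fold, and -0.04 (95% interval -0.41 to 0.33, adjusted p = 0.934) for ESMG versus squamous tissue. SPINT2, which encodes HAI-2, fell into 3 separate levels, at 11.36, 11.34 and 11.62 in spheroids, 10.78, 10.87 and 10.56 in ESMG and 9.96, 10.18 and 10.20 in squamous tissue. It was 2.52-fold higher in spheroids than in squamous tissue (log2 difference 1.33, SE 0.15, adjusted p = 2.45e-05), with 0.70 (SE 0.15, adjusted p = 0.00221) for spheroids versus ESMG and 0.63 (SE 0.15, adjusted p = 0.0274) for ESMG versus squamous tissue, both under 2-fold.

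The 2 sides were set against each other within each array as the log2 level of the protease minus that of the inhibitor, for pairs chosen after the values were seen. For ST14 minus SPINT1 this was -1.02, -0.87 and -0.83 in spheroids, -2.17, -2.12 and -1.90 in ESMG and -2.38, -2.36 and -2.13 in squamous tissue, sorted within groups. Spheroids did not overlap either tissue, and the mean shift was 1.16 against ESMG and 1.38 against squamous tissue. For ST14 minus SPINT2 the shift was 1.20 against ESMG and 0.76 against squamous tissue. For PRSS8 minus SPINT1 the shift was -0.51 against ESMG and 0.21 against squamous tissue, and for PRSS8 minus SPINT2 it was -0.47 and -0.41, so the PRSS8 pairs did not share the direction of the ST14 pairs except for PRSS8 minus SPINT1 against squamous tissue. Over the 12 such tests (4 pairs in 3 comparisons) the two-sided exact permutation p was 0.1 for each shift without overlap. After Benjamini-Hochberg adjustment it was 0.15. None passed, and none could have passed, because 0.1 is the smallest p that 3 against 3 arrays allow. These tests therefore cannot decide for or against a shift, and only the sizes and the overlap of the arrays are described. The absolute differences depend on the probes and are not ratios of transcripts.

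The Kazal-type inhibitors SPINK2, SPINK4, SPINK7 and SPINK14 were not called in any comparison, and 3 of them lay under the lower quartile on all 9 arrays. SPINK7, known in humans as a gene of esophageal squamous epithelium, measured 4.07, 3.89 and 3.78 in spheroids, 3.55, 3.41 and 3.54 in ESMG and 3.65, 3.63 and 3.62 in squamous tissue. With RMA values this low, a difference could not be measured reliably.

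Serpins gave the largest differences. SERPINA1, the gene of alpha-1 antitrypsin, which inhibits neutrophil elastase, marked the gland tissue, at 7.22, 9.08 and 7.03 in spheroids, 10.60, 10.82 and 10.12 in ESMG and 6.98, 6.70 and 6.79 in squamous tissue. All 3 ESMG arrays lay above all others, and the spheroids of pig 2 lay well above those of pigs 1 and 3. The gene was 12.9-fold higher in ESMG than in squamous tissue (log2 difference 3.69, SE 0.42, adjusted p = 0.000416) and 6.66-fold lower in spheroids than in ESMG (log2 difference -2.73, SE 0.42, adjusted p = 0.000314). Without the spheroids of pig 2 the difference of spheroids from ESMG was -3.39. Spheroids and squamous tissue differed by 0.95 (95% interval 0.03 to 1.88, adjusted p = 0.0958), a value called only without the spheroids of pig 3 (1.33, adjusted p = 0.0306). Glandular markers moved with SERPINA1 between the tissues. Of 13 of them, 7 fell and 1, KRT19, rose (1.87) in spheroids against ESMG. Their part in the SERPINA1 level was not tested.

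The B-clade serpins, which act mostly inside cells, were split. SERPINB1, an inhibitor of neutrophil elastase and related proteases, measured 10.66, 10.50 and 10.66 in spheroids, 12.44, 12.42 and 12.93 in ESMG and 13.06, 13.04 and 12.95 in squamous tissue. It was 3.97-fold lower in spheroids than in ESMG (log2 difference -1.99, SE 0.16, adjusted p = 2.42e-06) and 5.32-fold lower than in squamous tissue (log2 difference -2.41, SE 0.16, adjusted p = 5.34e-07). SERPINB7, known as megsin, measured 6.78, 7.03 and 7.08 in spheroids, 9.36, 8.73 and 9.05 in ESMG and 10.43, 9.30 and 9.78 in squamous tissue, and it fell 4.23-fold against ESMG (log2 difference -2.08, SE 0.26, adjusted p = 6.1e-05) and 7.32-fold against squamous tissue (log2 difference -2.87, SE 0.26, adjusted p = 5.13e-06). For both genes no spheroid array came near a tissue array. Squamous markers fell beside them, in 4 of 6 against ESMG and 5 of 6 against squamous tissue. KRT5, of the same list, had positive differences, both uncalled. They were 0.90 (adjusted p = 0.00185) against ESMG and 0.46 (adjusted p = 0.0622) against squamous tissue. The part of the squamous markers was not tested.

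SERPINB2, the plasminogen activator inhibitor PAI-2, went the other way, at 10.60, 9.70 and 11.01 in spheroids, 8.63, 8.24 and 8.99 in ESMG and 10.08, 9.31 and 9.71 in squamous tissue. ESMG was lowest with no overlap, and the spheroids of pig 2 lay among the squamous arrays. It rose 3.52-fold in spheroids against ESMG (log2 difference 1.82, SE 0.32, adjusted p = 0.000682) and differed by 0.74 (95% interval 0.05 to 1.43, adjusted p = 0.0849) from squamous tissue. The difference of ESMG from squamous tissue, -1.08 (SE 0.32, adjusted p = 0.0712), was not called, but it was called lower with pig as a fixed block (-1.08, adjusted p = 0.0140) and without the ESMG array of pig 40 (-1.27, adjusted p = 0.0375). SERPINB10, a serpin known from bone marrow and named after its values were seen, measured 11.25, 10.09 and 11.05 in spheroids, 9.72, 9.72 and 9.64 in ESMG and 10.98, 10.27 and 10.60 in squamous tissue and rose 2.14-fold against ESMG (log2 difference 1.10, SE 0.27, adjusted p = 0.00627). That call was lost without the spheroids of pig 1 (0.87) or pig 3 (0.97) and after cyclic loess (0.94). SERPINB5, which encodes maspin, a serpin without protease-inhibiting activity, was not called in any comparison, at 12.44, 11.89 and 12.39 in spheroids, 11.93, 11.95 and 12.10 in ESMG and 12.46, 12.37 and 12.50 in squamous tissue; its differences were 0.25 (95% interval -0.10 to 0.60, adjusted p = 0.251) for spheroids versus ESMG, -0.20 (95% interval -0.55 to 0.15, adjusted p = 0.356) for spheroids versus squamous tissue and -0.45 (95% interval -0.80 to -0.10, adjusted p = 0.142) for ESMG versus squamous tissue. SERPINB10 and SERPINB2 are next to each other in the protein-coding gene order of the RefSeq table of assembly Sscrofa11.1, with SERPINB7 the second gene after SERPINB2 and SERPINB5 the seventh after SERPINB7, so neighbours of 1 cluster differed in direction between spheroids and ESMG.

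Of the secreted and stromal serpins, 3 were lower in spheroids than in either tissue. SERPING1, the C1 inhibitor of the complement and contact systems, measured 6.70, 7.25 and 6.29 in spheroids, 10.25, 9.90 and 9.97 in ESMG and 9.96, 9.69 and 9.40 in squamous tissue. It was 9.83-fold lower in spheroids than in ESMG (log2 difference -3.30, SE 0.23, adjusted p = 9.61e-07) and 7.66-fold lower than in squamous tissue (log2 difference -2.94, SE 0.23, adjusted p = 2.02e-06). SERPINF1, the secreted factor PEDF, which does not inhibit proteases, measured 7.26, 7.05 and 7.12 in spheroids, 9.79, 9.93 and 10.33 in ESMG and 10.12, 9.74 and 9.998 in squamous tissue and fell 7.33-fold against ESMG (log2 difference -2.87, SE 0.17, adjusted p = 2.6e-07) and 7.01-fold against squamous tissue (log2 difference -2.81, SE 0.17, adjusted p = 2.91e-07). SERPINH1, the collagen chaperone HSP47 and likewise no protease inhibitor, measured 8.13, 8.38 and 7.98 in spheroids, 9.27, 9.22 and 9.75 in ESMG and 9.75, 9.36 and 9.30 in squamous tissue, with -1.25 (SE 0.19, adjusted p = 0.000248) against ESMG and -1.30 (SE 0.19, adjusted p = 0.00018) against squamous tissue. In all 3 genes the spheroid arrays lay below every tissue array, and the tissues overlapped. Fibroblast and matrix markers fell beside them in 13 of 15, and their part was not tested. Of the 19 serpins, 11 were called in no comparison, among them genes known for secretion by liver, such as SERPINC1 (antithrombin) and the hormone carriers SERPINA6 and SERPINA7, whose group means lay between 4.06 and 6.40. SERPINA3-2 belongs to a multigene family, so its probe set may read more than 1 copy; it was not called.

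**Figure D5:**
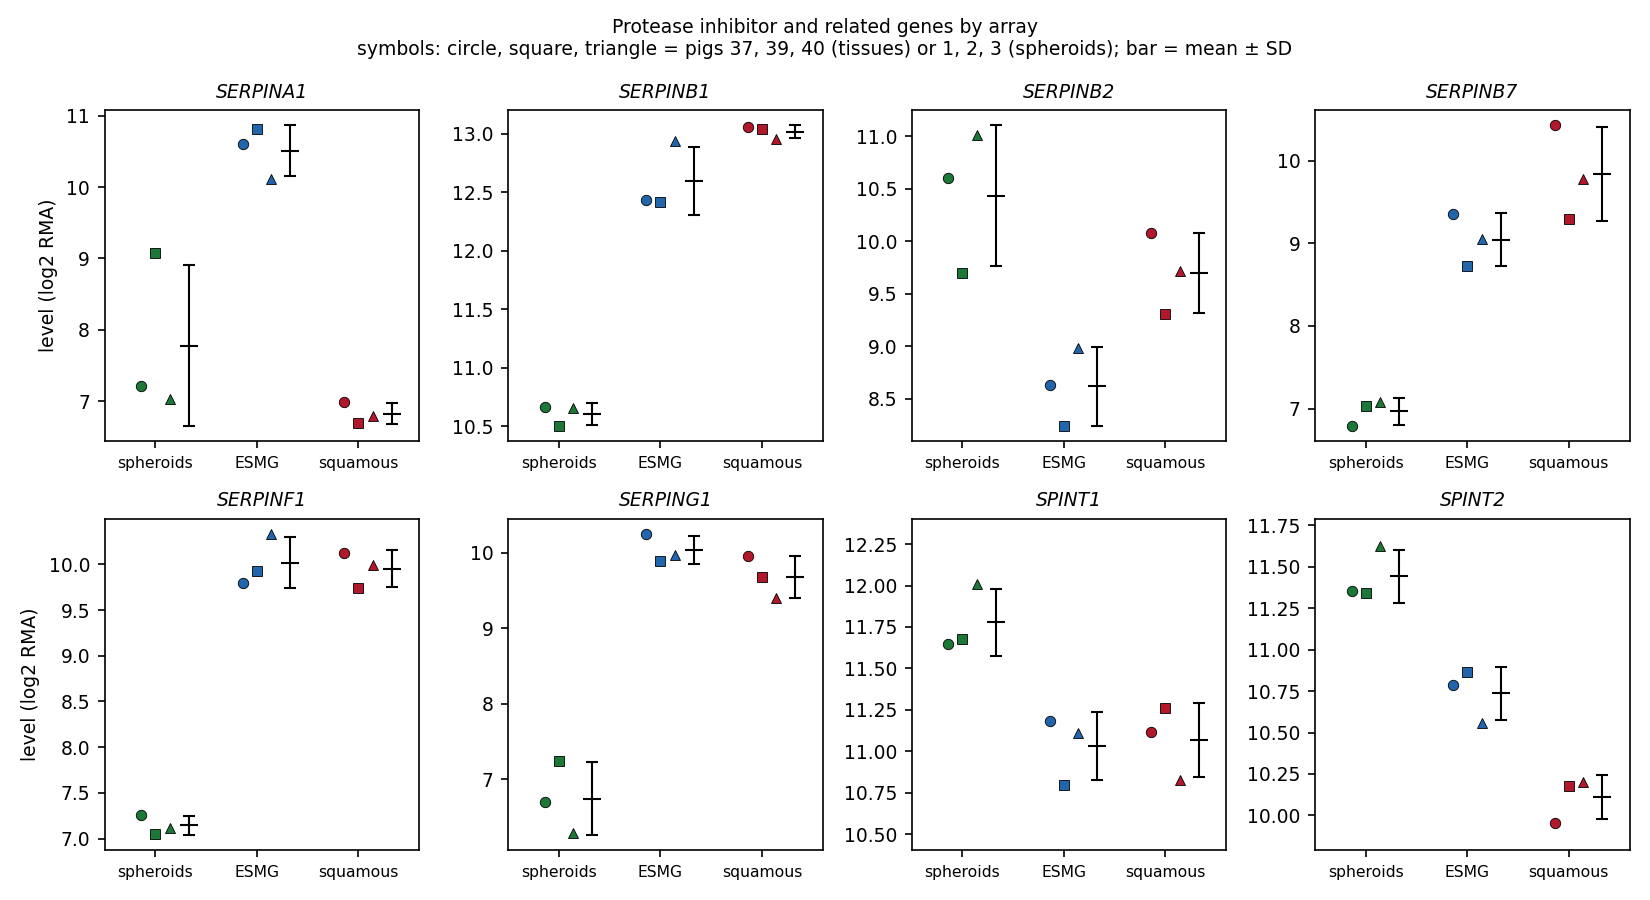
Log2 RMA level (vertical axis) of 6 serpins and the Kunitz inhibitors SPINT1 and SPINT2 on each array, with the mean and SD of each group of 3 beside its points. SERPINA1 is high on the ESMG arrays, SERPINB2 is low there, and SERPINB1, SERPINB7, SERPINF1 and SERPING1 are low in spheroids.

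Cathepsins went both ways, and the 2 that fell in spheroids, CTSK and CTSS, fell against both tissues. CTSK, the collagen-cutting cathepsin of osteoclasts and fibroblasts, measured 8.29, 8.30 and 8.90 in spheroids, 9.80, 9.996 and 10.13 in ESMG and 10.32, 10.31 and 10.23 in squamous tissue. It fell 2.79-fold in spheroids against ESMG (log2 difference -1.48, SE 0.18, adjusted p = 4.86e-05) and 3.46-fold against squamous tissue (log2 difference -1.79, SE 0.18, adjusted p = 1.09e-05). CTSS, the cathepsin of antigen-presenting cells that trims the invariant chain of MHC class II, measured 6.58, 6.62 and 7.09 in spheroids, 9.65, 8.27 and 8.29 in ESMG and 8.45, 7.62 and 7.67 in squamous tissue, and the highest array of each tissue was that of pig 37. It fell 3.93-fold against ESMG (log2 difference -1.98, SE 0.35, adjusted p = 0.000763) and by 1.15 on the log2 scale against squamous tissue (adjusted p = 0.0198). The call against squamous tissue was lost without the squamous array of pig 37 (-0.88), the spheroids of pig 1 (-1.06) or those of pig 2 (-1.08). Pig 37 also had the highest leukocyte marker level of each tissue, 9.09 in ESMG and 8.23 in squamous tissue; the part of leukocytes was not tested. CTSK and CTSS are adjacent genes in the same RefSeq table.

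Higher in spheroids were CTSH against both tissues, and CTSO and CTSZ against squamous tissue. CTSH, an aminopeptidase that takes part in surfactant protein processing, measured 12.005, 11.91 and 12.18 in spheroids, 11.16, 10.41 and 10.99 in ESMG and 11.02, 10.51 and 10.84 in squamous tissue. It rose 2.26-fold against ESMG (log2 difference 1.18, SE 0.20, adjusted p = 0.000673), a call lost without the ESMG array of pig 39 (0.95), and 2.36-fold against squamous tissue (log2 difference 1.24, SE 0.20, adjusted p = 0.000465). CTSO measured 9.26, 8.63 and 10.28 in spheroids, 8.96, 8.90 and 8.52 in ESMG and 8.29, 7.28 and 8.27 in squamous tissue and was higher by 1.44 (SE 0.37, adjusted p = 0.00849) in spheroids than in squamous tissue, where the spheroids of pig 3 carried the highest value and the call was lost without them (0.999, just under 2-fold). CTSZ, a carboxypeptidase named after its values were seen, was higher by 1.35 (SE 0.20, adjusted p = 0.000193) in the same comparison. CTSC, which activates the serine proteases of immune granules, lay between 10.85 and 11.91 over the 9 arrays and was highest in spheroids, at 0.96 (SE 0.14, adjusted p = 0.000205) against squamous tissue, under 2-fold; with array medians set equal it was 1.09 and called, and likewise without the spheroids of pig 1 (1.03). CTSV, a cathepsin close to CTSL, had mean levels of 12.69, 12.71 and 12.91 in spheroids, ESMG and squamous tissue, with -0.02 (95% interval -0.41 to 0.38, adjusted p = 0.95) for spheroids versus ESMG. CTSL itself measured 8.02, 7.62 and 7.76 in spheroids, 8.75, 7.66 and 7.997 in ESMG and 7.77, 7.01 and 7.02 in squamous tissue and was not called; between ESMG and squamous tissue its difference was 0.87 (SE 0.28, adjusted p = 0.0981), a value that passed with pig 37's squamous array left out (1.12, adjusted p = 0.0492). Of 10 cathepsins, 1 rose and 2 fell against ESMG, 3 rose and 2 fell against squamous tissue, and none was called between the tissues.

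Among 24 measured lysosomal genes outside the cathepsins, 3 rose and 1 fell in spheroids against ESMG and 4 rose and none fell against squamous tissue, with none called between the tissues. The lysosomal membrane protein LAMP1 was 1.11 and the hydrolase GUSB 1.87 higher on the log2 scale against ESMG, and the lipase LIPA was -1.11. No cystatin was called. CST3, the secreted inhibitor cystatin C, was bright on every array, at 11.17, 11.46 and 10.81 in spheroids, 11.24, 11.31 and 11.62 in ESMG and 11.37, 11.40 and 11.12 in squamous tissue, and the groups overlapped. Its differences were -0.24 (95% interval -0.64 to 0.16, adjusted p = 0.326), -0.15 (95% interval -0.55 to 0.26, adjusted p = 0.586) and 0.10 (95% interval -0.31 to 0.50, adjusted p = 0.843) for spheroids versus ESMG, spheroids versus squamous tissue and ESMG versus squamous tissue. CST6, cystatin M/E of stratified epithelium, measured 8.31, 9.07 and 8.25 in spheroids, 7.60, 7.71 and 8.08 in ESMG and 8.11, 8.80 and 8.12 in squamous tissue and differed by 0.75 (SE 0.25, adjusted p = 0.0307) between spheroids and ESMG, under 2-fold.

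ADAM8, a metalloprotease known from leukocytes and from invasive epithelium, gave the largest rise of the 88 genes in spheroids. It measured 9.07, 9.37 and 9.22 in spheroids, 6.63, 6.54 and 6.85 in ESMG and 6.80, 7.18 and 6.64 in squamous tissue. The spheroid arrays lay far above every tissue array, and the gene was 5.83-fold higher than in ESMG (log2 difference 2.54, SE 0.17, adjusted p = 6.09e-07) and 5.09-fold higher than in squamous tissue (log2 difference 2.35, SE 0.17, adjusted p = 1.04e-06), while of 11 leukocyte markers 7 fell and none rose against ESMG, and 6 fell and 2 rose (AIF1 by 1.27 and LCP1 by 1.26) against squamous tissue; their part was not tested. ADAM9, a widely expressed sheddase, measured 11.22, 11.06 and 11.86 in spheroids, 10.74, 10.55 and 9.86 in ESMG and 10.33, 8.92 and 9.48 in squamous tissue and was 3.49-fold higher in spheroids than in squamous tissue (log2 difference 1.81, SE 0.34, adjusted p = 0.00128); with array weights that log2 difference was 1.20. Against ESMG it was 0.999 (SE 0.34, adjusted p = 0.0355), just under the 2-fold minimum; it was called with array medians set equal (1.11) and without the spheroids of pig 2 (1.16) or the ESMG array of pig 37 (1.18).

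ADAM28, known from lymphocytes and some epithelia, was the ADAM gene called between ESMG and squamous tissue, at 7.81, 7.68 and 7.95 in spheroids, 8.56, 8.59 and 7.36 in ESMG and 7.10, 6.40 and 6.71 in squamous tissue. The ESMG array of pig 40 lay below the other ESMG arrays and below the spheroids. It was 2.7-fold higher in ESMG than in squamous tissue (log2 difference 1.43, SE 0.29, adjusted p = 0.0145), a call lost without the ESMG array of pig 37 or 39 (1.24 and 1.22) and without the squamous array of pig 39 or 40 (1.26 and 1.42), with adjusted p from 0.0569 to 0.0633; without the ESMG array of pig 40 it was 1.83. ADAM12, named after its values were seen, was also higher in ESMG than in squamous tissue at an adjusted p of 0.0266, under 2-fold (0.57). In spheroids ADAM28 was higher than in squamous tissue by 1.08 (SE 0.29, adjusted p = 0.0119). That difference fell under 2-fold without the squamous array of pig 39 (0.91) and with array weights (0.84). Leukocyte markers had a median difference of 0.61 between ESMG and squamous tissue, with 1 of 11 called, and their part was not tested.

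Of the ADAM genes that fell, ADAM23 and ADAM22 encode proteins without a working protease site, known as receptors of neuronal LGI proteins. ADAM23 measured 4.91, 4.97 and 4.71 in spheroids, 6.42, 7.02 and 6.87 in ESMG and 6.75, 6.95 and 7.42 in squamous tissue and fell 3.75-fold against ESMG (log2 difference -1.91, SE 0.20, adjusted p = 2.01e-05) and 4.51-fold against squamous tissue (log2 difference -2.17, SE 0.20, adjusted p = 6.85e-06). ADAM22, named after its values were seen, measured 5.03, 4.75 and 4.40 in spheroids, 5.63, 6.48 and 6.02 in ESMG and 5.26, 5.17 and 5.04 in squamous tissue, fell 2.5-fold against ESMG (log2 difference -1.32, SE 0.22, adjusted p = 0.000485) and was 0.89 (SE 0.22, adjusted p = 0.0357) between ESMG and squamous tissue, under 2-fold. Spheroid levels of both genes lay under the lower quartile of their arrays, and so did the squamous levels of ADAM22. These folds, and the ADAM22 difference between the tissues, therefore rest on values near the floor of RMA. ADAM19, known from muscle, heart and nerve development, fell 3.83-fold against squamous tissue (log2 difference -1.94, SE 0.31, adjusted p = 0.000432) and 2.44-fold against ESMG (log2 difference -1.29, SE 0.31, adjusted p = 0.00599), at 6.08, 6.57 and 6.08 in spheroids, 7.85, 6.93 and 7.82 in ESMG and 8.89, 7.89 and 7.76 in squamous tissue. Smooth muscle markers fell beside it in 6 of 7 against ESMG and 7 of 7 against squamous tissue. So did 13 of 15 fibroblast and matrix markers and 6 of 7 endothelial markers against either tissue. The part of these cell types was not tested.

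ADAM17, the sheddase of TNF and of several EGF receptor ligands, was not called. It measured 8.80, 8.53 and 9.24 in spheroids, 9.03, 9.12 and 9.07 in ESMG and 8.88, 8.73 and 9.07 in squamous tissue, the groups overlapped, and the differences were -0.21 (95% interval -0.61 to 0.18, adjusted p = 0.379) for spheroids versus ESMG, -0.03 (95% interval -0.43 to 0.36, adjusted p = 0.909) for spheroids versus squamous tissue and 0.18 (95% interval -0.21 to 0.57, adjusted p = 0.665) for ESMG versus squamous tissue. ADAM10, the sheddase of Notch receptors and cadherins, read between 3.67 and 4.58, under the lower quartile of all 9 arrays, and a change of it was not measurable here. Of 17 measured substrates and partners of ADAM sheddases, 7 rose and 1 fell in spheroids against ESMG, with a list median of 0.57 against 0.09 for all genes, and 6 rose and 1 fell against squamous tissue. The ligand genes AREG (6.06), EREG (3.09), HBEGF (1.51) and TGFA (1.26) were higher against ESMG, and RHBDF1, a partner of ADAM17, was 1.70 higher. The 1 gene that fell there was the receptor gene ERBB4 (-2.08).

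Of the calpains, CAPN6, which lacks the active-site cysteine and is known for binding microtubules, was called. It measured 5.39, 5.61 and 5.27 in spheroids, 6.90, 7.45 and 7.10 in ESMG and 6.07, 5.75 and 5.66 in squamous tissue, with ESMG above both other groups and no overlap. It was 2.5-fold higher in ESMG than in squamous tissue (log2 difference 1.32, SE 0.18, adjusted p = 0.00102) and 3.31-fold lower in spheroids than in ESMG (log2 difference -1.73, SE 0.18, adjusted p = 1.6e-05). Between spheroids and squamous tissue it differed by -0.40 (95% interval -0.79 to -0.02, adjusted p = 0.0911). Its spheroid levels lay near the lower quartiles of their arrays (5.39, 5.44 and 5.36), under it on 1. The squamous levels of pigs 39 and 40 lay close above theirs (5.65 and 5.53). Both folds therefore rest partly on values near the floor of RMA. The classical calcium-dependent calpain CAPN1 measured 10.52, 10.59 and 10.42 in spheroids, 9.46, 9.60 and 10.07 in ESMG and 10.15, 10.28 and 10.17 in squamous tissue. Its difference of 0.80 (SE 0.16, adjusted p = 0.0019) between spheroids and ESMG stayed under 2-fold. CAPN3, known from skeletal muscle, was -0.98 (SE 0.17, adjusted p = 0.000754) in the same comparison and was called lower without the spheroids of pig 1 (-1.06) or the ESMG array of pig 39 (-1.11).

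Of the 6 caspase genes, CASP14 was called higher in spheroids against both tissues and CASP6 against squamous tissue, and none was called lower. CASP6, an executioner caspase, measured 9.30, 9.54 and 9.37 in spheroids, 8.49, 8.58 and 8.42 in ESMG and 7.93, 8.04 and 8.15 in squamous tissue, in 3 levels without overlap. It was 2.57-fold higher in spheroids than in squamous tissue (log2 difference 1.36, SE 0.13, adjusted p = 9.19e-06) and 0.91 (SE 0.13, adjusted p = 0.000194) against ESMG, under 2-fold except with array medians set equal (1.02). CASP14, a caspase of keratinocyte differentiation, measured 6.01, 5.56 and 5.68 in spheroids, 4.64, 4.56 and 4.66 in ESMG and 4.65, 4.60 and 4.80 in squamous tissue and rose 2.19-fold against ESMG (log2 difference 1.13, SE 0.15, adjusted p = 8.44e-05) and by 1.07 (SE 0.15, adjusted p = 0.000123) against squamous tissue, where it fell under 2-fold without the spheroids of pig 1 (0.94). Its tissue levels lay under the lower quartile of each array, near the floor of RMA, so the size of these folds could not be measured reliably. CASP1, the inflammasome caspase that matures interleukin-1, was lower in spheroids at -0.83 (SE 0.16, adjusted p = 0.0015) between spheroids and ESMG, under 2-fold except after cyclic loess (-1.02). CASP9, the initiator of the mitochondrial pathway, was not called, with group means of 7.86 in spheroids, 7.70 in ESMG and 7.96 in squamous tissue. CASP8AP2, which the symbol rule takes in, encodes a partner of caspase-8 and no protease, and was not called. Of 17 measured genes that act with caspases, 3 rose and 1 fell in spheroids against ESMG, and 5 rose and 1 fell against squamous tissue. The 3 that rose against ESMG were the pro-apoptotic BAX (1.83), IL18 (2.95) and TNFRSF21, and the 1 that fell was the anti-apoptotic BCL2 (-1.03). BCL2L1, of the same list, was -0.12 there (adjusted p = 0.543) and not called.

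Proteolysis genes outside the 88 were read from lists of related families. Of 31 metalloproteases and metalloprotease inhibitors, 9 rose and 8 fell in spheroids against ESMG, 8 rose and 8 fell against squamous tissue, and 2 were higher in ESMG than in squamous tissue. The matrix-bound inhibitor TIMP3 was -2.16 and the secreted inhibitor TIMP1 1.07 against ESMG. Among 14 genes of plasminogen activation and coagulation, 3 rose and 3 fell against ESMG; PLAUR, the receptor of urokinase, which SERPINB2 inhibits, was 2.44 higher and the coagulation factor F13A1 was -2.40. Of 21 other protease inhibitors none rose and 4 fell in spheroids against ESMG, 3 rose (PI3, SLPI and WFDC2) and 3 fell against squamous tissue, and 4 were higher and 1 lower in ESMG than in squamous tissue. The elastase inhibitor SLPI was 1.79 and PI3, another elastase inhibitor, 2.27 higher in ESMG than in squamous tissue. Unlike SERPINA1 above, neither was called lower in spheroids against ESMG. KNG1, of the same list, was 5.01 higher in ESMG than in squamous tissue and -5.605 in spheroids against ESMG. Of 13 receptors and substrates of epithelial serine proteases, 2 rose and 1 fell in spheroids against ESMG, and 3 rose and 4 fell against squamous tissue. The protease-activated receptor F2RL1, a target of matriptase, was 1.47 higher in ESMG and 2.23 higher in spheroids than in squamous tissue. The sodium channel subunits SCNN1A, at -1.01, and SCNN1G were called lower in spheroids against squamous tissue.

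In all, 59 of the 88 genes were called in no comparison. The matching share of all tested genes is not given here, so whether this count is usual for the array was not tested. Shares of all tested genes are given above for each comparison alone. Of the 88, 13 lay under the lower quartile on all 9 arrays and 15 on some of them, and for these a missing call says little.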

How the data were processed

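RNA of 9 porcine samples was measured on PorGene 1.0 ST arrays; the design text gives 3 biological replicates per group. The deposited values are log2 RMA levels made in Affymetrix Expression Console (gene-level, full probe set list), per the labels; Transcriptome Analysis Console 3.0 is named with no role, per the submitters' processing notes. RMA makes the arrays alike in distribution and compresses differences near the floor. No coordinates are printed because of the genome build (not given in the sources used here). Each of the 9 columns matched 1 sample.

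Of 27558 probe sets, 13157 had exactly 1 symbol and 523 had several; 12841 matched the RefSeq gene table (assembly Sscrofa11.1) by gene number, and 7 symbols changed. A gene with several probe sets was read through its brightest one by mean level. Of the 88 genes, 6 had 2 probe sets; those of CST3, CTSL and SPINK2 held the same values. A gene that the symbol rule leaves out is not reported here.

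Group means were fitted for 12217 genes over the 9 arrays (limma 3.58.1 in R 4.3.3, lmFit and eBayes, 6 residual degrees of freedom), two-sided; the fit was tested on simulated data. Tables used Python 3.11.15, pandas 2.3.3, numpy 2.4.6 and scipy 1.17.1, plots matplotlib 3.10.9. The members, role groups, lists and named genes were chosen with earlier results of these data known. Named genes were the 6 largest rises and 6 largest falls per comparison among called members, the largest of each role group, and a list of well-known members. ESMG and squamous samples came from the same pigs, per their titles. Deviations of same-pig arrays from their group means correlated at 0.422, -0.147 and -0.168 for pigs 37, 39 and 40. Alternatives covered scaling, dim genes, probe sets, array weights, the pig block and each array left out.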

Additional observations from a re-analysis of the deposited data

How the results depend on the processing

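Alternatives were run for 65 pairs of a named gene and a comparison, 37 of them called. Of 1242 such values, 1217 kept their direction and their side of the threshold, 10 lost a call, 2 gained one and 13 changed sign. All 13 lay near 0 and were uncalled. The 7 results concerned crossed 0 when single arrays were left out, as log2 differences. ADAM10 gave -0.028 to 0.228 in spheroids versus ESMG and -0.307 to 0.018 in spheroids versus squamous tissue. ADAM17 gave -0.226 to 0.130 in spheroids versus squamous tissue, and 0.097 with array medians set equal. CST3 gave -0.020 to 0.17 in ESMG versus squamous tissue, where array weights gave -0.0083, and -0.303 to 0.025 in spheroids versus squamous tissue. In ESMG versus squamous tissue, SERPINH1 gave -0.223 to 0.086 and SPINT1 -0.159 to 0.079. The causes were not tested.

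Leaving out 1 array at a time gave 3 to 6 called members for ESMG versus squamous tissue (4 with all arrays), 19 to 22 for spheroids versus ESMG (20) and 23 to 25 for spheroids versus squamous tissue (24). Array weights gave 9 for ESMG versus squamous tissue, 5 higher and 4 lower, the cause of which was not tested. By construction, no fold minimum gave more: 9 for ESMG versus squamous tissue and 42 for spheroids versus ESMG, and 35 for spheroids versus squamous tissue. With pig as a fixed replicate block, 5 members were called in ESMG versus squamous tissue, 4 higher and 1 lower, the added one being SERPINB2; with pig as a random replicate block 4 were called. The pairing by pig changed no other call of the 88 genes. Setting array medians equal gave a median difference over all genes of 0.20 for spheroids versus ESMG (0.09 as deposited) and 0.16 for spheroids versus squamous tissue (0.03). It moved calls over all genes toward higher in both spheroid comparisons, and cyclic loess moved them toward lower, with the counts given above. With the dimmest 1 in 3 genes left out, 49 of the 88 genes were tested. No detection call was used, so signal over background limits what can be said of dim genes.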
